A study of Mus musculus with 19 samples.

Results

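Callosal projection neurons (CPN) of the mouse cortex were compared between postnatal day 14 (P14) and postnatal day 6 (P6). The comparison rests on the 2 arrays labelled as callosal neurons at P14 and the 2 labelled as callosal neurons at P6, 4 of the 19 Affymetrix Mouse Genome 430 2.0 arrays in the series. The mice were C57BL/6, with no transgene or drug named. At both ages, green fluorescent microspheres injected into an axonal field in sensorimotor cortex were carried back to the cell bodies, and the labelled neurons were dissociated, sorted by fluorescence and amplified through repeated rounds of in vitro transcription. The series also holds corticospinal motor neurons (CSMN) at P14 and P6, which are set beside the callosal cells below, and both types at P3 and embryonic day 18 (E18). The types differ in the target of their axons, so their injection sites are not taken to be the same. A ninth group, corticotectal neurons (CTPN) at P14, enters only the shared estimate of spread and the stage values. The design text describes the arrays of a group as independent collections. The number of animals pooled for each array and their sex are not given in the sources used here, and a sort by a tracer selects neurons by the position of their axon, so it does not separate layers, cortical areas or any unlabelled cell carried along.

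Callosal neurons join the cortical hemispheres. Most lie in the upper layers, with further cells in layer 5, and their identity is set by transcription factors such as Cux2 and Lhx2. In the first postnatal week their axons cross the corpus callosum and invade the opposite cortex. In the following days exuberant branches are withdrawn, dendrites and spines grow, synapses form in large numbers, and sensory activity begins to shape them. Genes for axon extension, synapse assembly, excitability and activity-dependent transcription are therefore the classes usually followed over this window.

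Values are log2 intensities after robust multiarray averaging (RMA), so a difference of 1 is a doubling of signal. They ran from 3.17 to 14.4 over all arrays, with array medians of 6.42 to 6.62, and genes below 6.62 are described as below the array medians because their differences are compressed. The brightest probe set stood for each of 18193 genes. The P14 replicates differed by a median SD of 0.11 (r = 0.993 across genes) and the P6 replicates by 0.16 (r = 0.979). Signal at the 3′ end of Gapdh exceeded that at its 5′ end by 1.80 and 1.86 at P14 and by 2.09 and 2.78 at P6, and for Actb by 1.44 and 1.32 at P14 and by 0.62 and 1.48 at P6. Xist, the X-inactivation RNA of female cells, had 8.71 and 9.24 at P14, against 10.70 and 11.85 at P6 (difference −2.30, adjusted p = 0.0229), whereas the Y-linked Eif2s3y, Kdm5d and Uty did not pass. The share of female tissue at each age is therefore not known to be equal, and its part in the results was not tested. Levels here are of RNA pooled over sorted cells, in which more cells expressing a gene and more RNA per cell cannot be told apart.

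At both ages Cux2 and Lmo4 averaged higher, and Bcl11b and Fezf2 lower, in callosal than in corticospinal neurons. Cux2, the upper-layer transcription factor, had 10.45 and 10.36 at P14, against 11.13 and 10.61 at P6, while corticospinal neurons averaged 7.02 at P14 and 6.72 at P6. Lmo4, a transcriptional cofactor of callosal neurons, had 10.15 and 10.15 at P14, against 9.88 and 9.72 at P6, and averaged 8.24 and 7.95 in corticospinal neurons at the same ages. The layer 5 regulator Bcl11b, which specifies corticospinal neurons, had 8.40 and 8.65 in callosal neurons at P14, against 7.19 and 8.36 at P6, and averaged 11.36 and 12.41 in corticospinal neurons. Fezf2, which acts upstream of Bcl11b, had 8.84 and 8.46 at P14, against 8.45 and 8.0 at P6, and averaged 10.51 and 10.82 in corticospinal neurons. Of these genes none passed the test between P14 and P6 in callosal neurons (differences of −0.47 for Cux2, 0.35 for Lmo4, 0.75 for Bcl11b and 0.42 for Fezf2). Lhx2 and Crym, also used as identity checks, are described below. The callosal gene Lhx2 had a difference of −1.52 without passing, and the corticospinal marker Crym rose by 3.21 (adjusted p = 0.000969).

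Between P6 and P14, the named genes had differences in callosal neurons from 5.03 log2 units (Lamp5) down to −4.58 (Vcan, −0.97 with the mean of all its probe sets). Synaptic, signalling and activity-regulated genes were among those that rose, and genes of axon growth and young neurons among those that fell. limma called 1062 of 18193 genes at an adjusted p under 0.05 (5.84% of genes), of which 641 rose (3.52%) and 421 fell (2.31%). The median called rise was 1.36 and the median called fall was −1.47, against a median difference of 0.07 over all genes, and 532 rises and 374 falls exceeded 1 log2 unit. Among the called genes, 144 of the risers were below the array medians in both P6 arrays and 72 of the fallers were below them in both P14 arrays. In every called gene both P14 values lay on the same side of both P6 values, as they did in 51.5% of all genes (32.7% higher at P14 and 18.8% lower). The count of calls moved with single arrays: 270 genes passed without P14 replicate 1, 445 without P14 replicate 2, 621 without P6 replicate 1 and 515 without P6 replicate 2. It came to 1781 without either of the corticospinal P14 arrays, whose replicates differed by a median SD of 0.46.

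The 15 largest rises brought together calcium and Ras signalling, peptides and synaptic proteins. Lamp5, a neuronal relative of the lysosomal membrane proteins, had 11.56 and 11.44 at P14, against 5.99 and 6.96 at P6 (difference 5.03 ± 0.31, adjusted p = 5.61e-07; differences are P14 minus P6 with their SE, on the log2 scale). Both P6 values lay near the array medians and both P14 values were among the bright genes. Rasgrf1, an exchange factor that activates Ras when calcium enters, had 11.57 and 11.63 at P14, against 6.75 and 7.94 at P6 (19-fold, adjusted p = 3.06e-06). Nrn1 encodes neuritin, a membrane-anchored protein that promotes neurite and synapse growth. It had 12.59 and 12.64 at P14, against 8.27 and 8.54 at P6 (18.5-fold, adjusted p = 8.83e-06).

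Several of the other large rises were calcium-binding or calmodulin-binding proteins. Calb1, the calcium buffer calbindin, had 11.99 and 11.51 at P14, against 7.75 in each P6 array (16-fold, adjusted p = 0.000359). Pcp4, a small protein that binds calmodulin, had 12.69 and 12.52 at P14, against 8.44 and 9.27 at P6 (13.4-fold, adjusted p = 8.83e-06). Tnnc1 encodes the troponin C of slow and cardiac muscle and is a known marker of callosal neurons. It had 9.51 and 9.21 at P14, against 5.51 and 5.52 at P6, where it lay below the array medians (3.84 ± 0.31, adjusted p = 6.93e-06). Tesc, the EF-hand protein tescalcin, had 11.75 and 11.03 at P14, against 7.99 and 7.69 at P6 (11.7-fold, adjusted p = 1.61e-05). As in every called gene, the P14 and P6 arrays of these genes did not overlap, which held in 51.5% of all genes. The list also held Cckbr, the cholecystokinin B receptor (3.54), Mt3, a zinc-binding metallothionein of the brain (3.50), and Itpka, an inositol trisphosphate kinase of dendritic spines (3.47). Npnt, a matrix ligand of integrins (3.43), Ramp1, the partner of the calcitonin-gene-related peptide receptor (3.42), and the genes Crh (3.57), Arc (3.40) and Gabrd (3.38), described below, completed it.

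The 15 largest falls were led by Vcan and Sox11 and held genes of varied roles. Vcan, the matrix proteoglycan versican, had 5.11 and 5.65 at P14, against 9.92 and 10.01 at P6 (difference −4.58 ± 0.20, adjusted p = 2.03e-08). Sox11, a transcription factor of newborn neurons, had 7.82 and 7.84 at P14, against 12.50 and 12.23 at P6 (lower at P14 by 23.2-fold, adjusted p = 4.72e-08). Dcx, the microtubule-binding protein doublecortin of migrating neurons, had 9.41 and 9.83 at P14, against 12.96 in each P6 array (lower by 10.1-fold, adjusted p = 0.000582). Versican was thus below the array medians at P14, whereas Sox11 and Dcx stayed above them. Trim67, a tripartite-motif protein of the nervous system, had 5.39 and 5.99 at P14, against 10.07 and 10.27 at P6 (−4.48 ± 0.34, adjusted p = 4.28e-06). Fat4, an atypical cadherin that signals to planar polarity, had 6.41 and 6.59 at P14, against 10.33 and 10.04 at P6 (−3.68 ± 0.49, adjusted p = 0.000392). Vash2, an enzyme that removes the terminal tyrosine of tubulin, had 6.92 and 6.62 at P14, against 10.47 and 9.73 at P6 (lower by 10.1-fold, adjusted p = 8.82e-06). As in every called gene, the ages did not overlap in these falls. The remaining falls were those of B3gnt5, a glycosyltransferase of glycolipids (−3.80), Sla, a Src-like adaptor (−3.53), Gprin2, a G-protein-regulated inducer of neurites (−3.46), and Gpr161, a receptor of primary cilia (−3.30). Ndrg1 (−3.22), the thrombin receptor F2r (−3.10), Ankrd44 (−3.09), Zfp229 (−3.00) and the LIM protein Csrp2 (−2.95) ended the list.

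**Figure D1:**
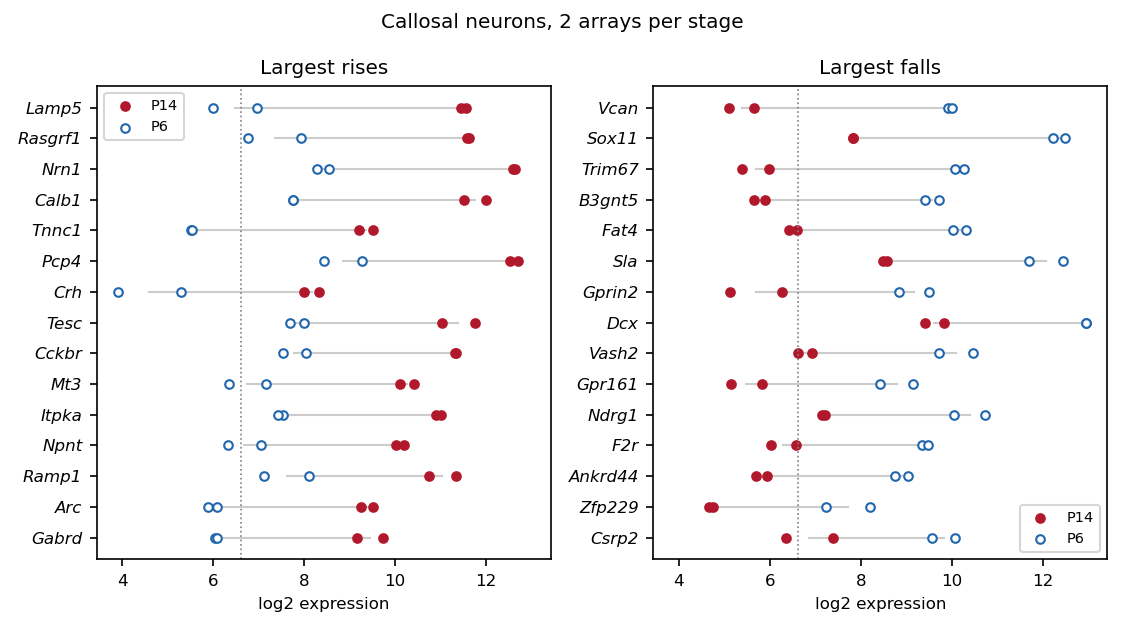
Log2 intensity of the 15 genes with the largest rises (left) and the 15 with the largest falls (right) in callosal neurons, with 1 point per array, P14 filled red and P6 open blue, the grey line joining the stage means and the dotted line at the highest array median, 6.62. Lamp5 heads the rises with 11.56 and 11.44 at P14 against 5.99 and 6.96 at P6, and Vcan heads the falls with 5.11 and 5.65 at P14 against 9.92 and 10.01 at P6.

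Many genes have several probe sets, and the one chosen moved values. For the 196 called genes that are named or stand in a list, the brightest probe set was replaced by the mean of all probe sets of the gene, or probe sets whose type may cross-hybridize were left out. With the mean, 22 of the 196 were no longer called and 58 differences moved by over 1.5 times. Without probe sets that may cross-hybridize, 175 genes kept a value, of which 27 were no longer called, 7 of them at an unchanged difference, and 17 moved by over 1.5 times. No sign changed among these genes under either rule. Of all 1062 called callosal genes, 842 stayed called in the same direction with the mean, and 1 changed sign. Without probe sets that may cross-hybridize, 949 of them kept a value, 804 stayed called in the same direction and 12 changed sign. Among the largest changes, Vcan was −0.97, Ankrd44 −0.87, Gpr161 −1.58, Dcx −1.86, B3gnt5 −2.09, Sla −2.18, F2r −2.04, Ramp1 1.39, Npnt 1.71, Gabrd 1.89 and Calb1 2.46 with the mean, all still called. Ndrg1 was −1.26 without probe sets that may cross-hybridize and no longer called. Of genes described below, Arid1a, Hapln1, Hsd17b7, Kcnip4, Kcnj9, Nfib, Npy1r, Slc1a3, Slc32a1 and Unc5c lost their call with the mean. Celf2, Hsd17b7, Nfix, Pcdh8, Rasd2, Slc1a3 and Slc2a1 lost it without probe sets that may cross-hybridize. Among those still called, Camk2a was 0.86, Rasgrp1 1.07, Slc1a2 0.78, Nsf 0.51, Limch1 −0.83 and Epha3 −0.91 with the mean. Counts of lists moved as well: without probe sets that may cross-hybridize, 1 GABA gene of 13, 2 thyroid-linked genes of 14, none of 17 growth factor genes and 5 of 38 respiratory chain genes rose, and 2 of 23 cholesterol and lipid genes fell. With the mean, 13 respiratory chain genes rose.

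Genes were then read by role, in 40 lists that held 999 measured genes, of which 117 rose and 56 fell. Each count below is to be read beside the share of all genes called: 5.84% in either direction, 3.52% rising and 2.31% falling. The lists with the highest share of members rising were activity-regulated genes, neuropeptides, glycolytic enzymes and presynaptic genes, and the list with the highest share falling was axon growth. The total of 173 called members was 53 without P14 replicate 1 and 76 without P14 replicate 2, 111 without P6 replicate 1 and 93 without P6 replicate 2. Leaving out an array leaves that age with 1 array, assumed to vary like the other groups. Counts without single arrays are given below in the order P14 replicate 1, P14 replicate 2, P6 replicate 1 and P6 replicate 2.

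**Figure D2:**
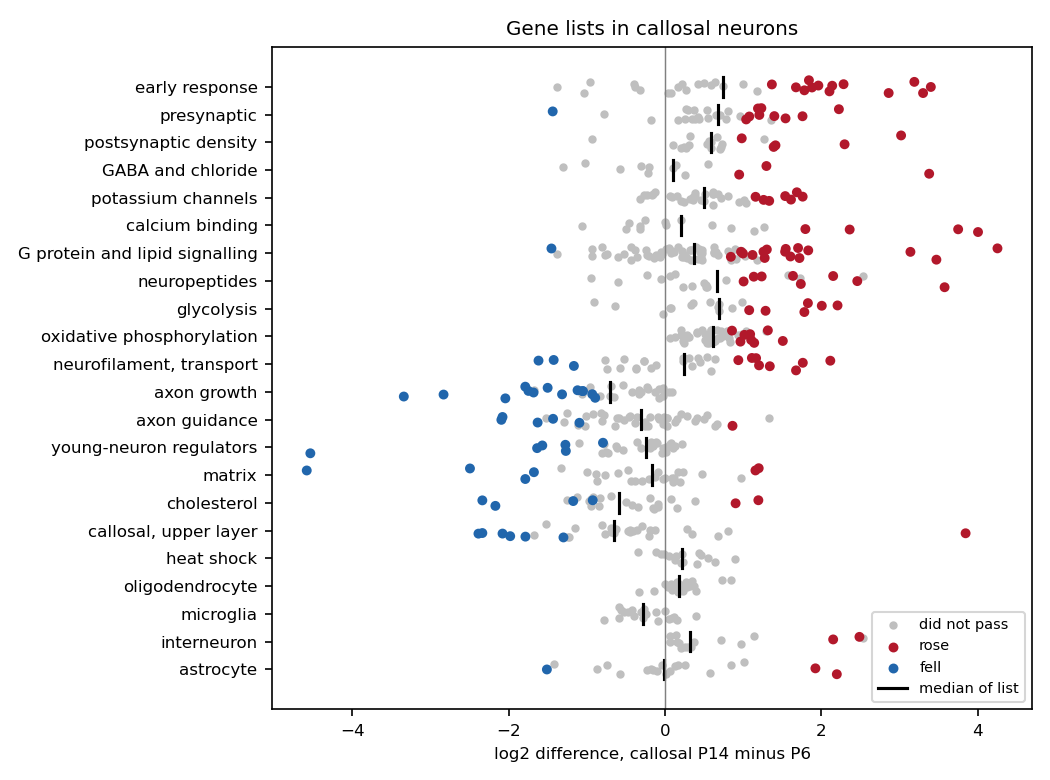
Difference between P14 and P6 (log2) in callosal neurons for the members of 22 lists, 1 point per gene, red where it rose, blue where it fell and grey where it did not pass, with a black bar at the median of each list. Early response genes (13 of 31 rose, none fell, median 0.74) and axon growth genes (13 of 36 fell, none rose, median −0.70) lie to opposite sides, and the heat shock, oligodendrocyte and microglia lists have no called member.

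Neurons transcribe activity-regulated genes within minutes to hours of calcium entry. Of 31 measured, 13 rose (41.9%, against 3.52% of all genes), none fell and 18 did not pass, with a median difference of 0.74 and a positive sign in 25. Arc, which removes glutamate receptors from synapses, had 9.24 and 9.51 at P14, against 6.08 and 5.88 at P6 (3.40 ± 0.33, adjusted p = 2.58e-05). The transcription factor Egr1 had 12.67 and 12.58 at P14, against 9.54 and 9.10 at P6 (9.84-fold, adjusted p = 0.000508). In both genes, as in every called gene, the ages were separate, and Arc lay below the array medians at P6. Its relative Egr2 had 8.74 and 9.22 at P14, against 6.45 and 5.79 at P6 (2.86 ± 0.49, adjusted p = 0.00303). Nptx2, a secreted pentraxin that gathers AMPA receptors, had 8.71 and 8.41 at P14, against 5.23 and 5.52 at P6 (3.19 ± 0.27, adjusted p = 8.83e-06). Fos, a subunit of the AP-1 factor, had 10.71 and 10.94 at P14, against 9.16 and 7.92 at P6 (4.87-fold, adjusted p = 0.0152), and its partner Junb had 8.88 in each P14 array, against 7.15 and 6.34 at P6 (2.14 ± 0.38, adjusted p = 0.00394). The P6 replicates differed most in Fos, with both still below the P14 values. Of the well known members, Homer1 (0.58) and Jun (0.27) did not pass, and Nr4a2 differed by −1.03 without passing. Without single arrays 5, 6, 11 and 4 activity-regulated genes rose. In corticospinal neurons 7 of the 31 rose and 1 fell (median 0.54), where 1.75% of all genes rose and 4.28% fell. Dissociation and sorting can themselves induce such genes. Heat shock and stress genes, measured in the same cells, had no member called of 16 (median 0.21), with a log2 summed level of 15.43 and 15.15 at P14 and 15.28 and 15.17 at P6. The part of dissociation in the result was not tested.

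**Figure D3:**
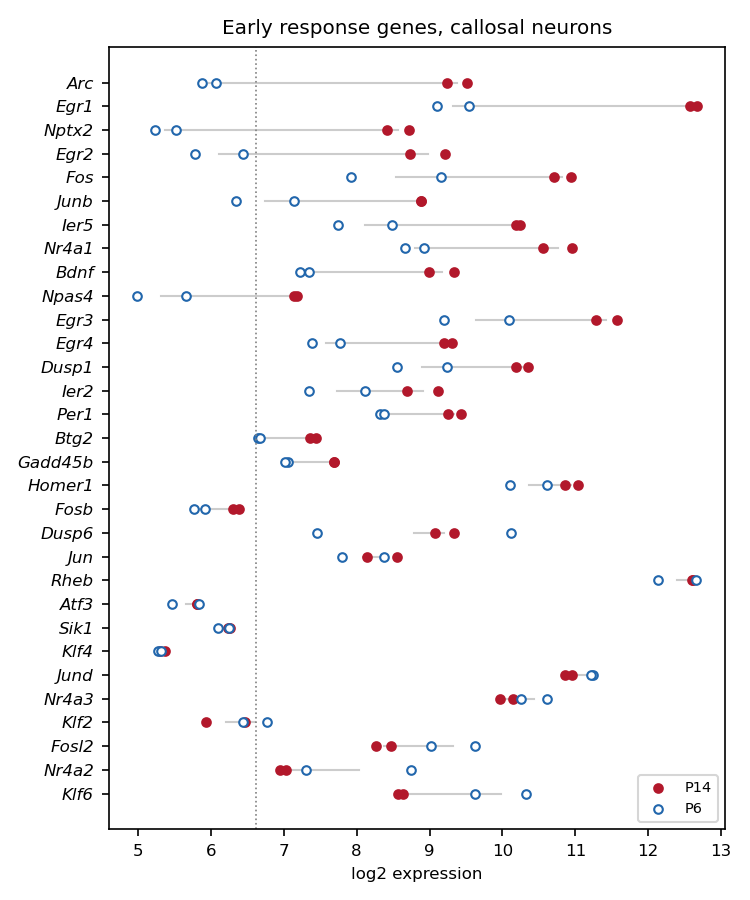
Log2 intensity of the 31 activity-regulated genes in callosal neurons, 1 point per array, P14 filled red and P6 open blue, with genes ordered by their difference and the dotted line at 6.62. The 13 genes that rose, from Arc at the top (9.24 and 9.51 at P14, 6.08 and 5.88 at P6), have both P14 points right of both P6 points. This holds for every called riser and for 32.7% of all genes.

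The sequences upstream of these genes are shown because the same factors act on many of them: the cyclic-AMP response element, whose core is TGACG, is a known site of CREB in the Fos and Nr4a1 promoters. RefSeq held a promoter for 9 of the 13 genes that rose, and 7 had a single listed start and could be shown. The 250 bases before the start are given for the 4 of these with the largest rises (RefSeq, GRCm38.p6, 5′ to 3′ on the gene's strand), with TGACG or its reverse complement CGTCA in capitals.
Fos, chr12:85473640-85473889, plus strand: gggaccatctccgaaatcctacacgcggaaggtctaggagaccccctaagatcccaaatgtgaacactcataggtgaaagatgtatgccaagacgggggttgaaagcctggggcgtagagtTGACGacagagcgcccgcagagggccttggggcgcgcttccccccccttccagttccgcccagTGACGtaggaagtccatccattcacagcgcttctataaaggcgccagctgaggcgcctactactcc
Junb, chr8:84978749-84978998, minus strand: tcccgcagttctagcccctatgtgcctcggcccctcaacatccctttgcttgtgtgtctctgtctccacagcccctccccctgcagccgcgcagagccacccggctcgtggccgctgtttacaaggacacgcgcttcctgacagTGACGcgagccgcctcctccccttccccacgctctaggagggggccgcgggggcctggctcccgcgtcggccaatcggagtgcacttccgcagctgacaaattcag
Ier5, chr1:155099637-155099886, minus strand: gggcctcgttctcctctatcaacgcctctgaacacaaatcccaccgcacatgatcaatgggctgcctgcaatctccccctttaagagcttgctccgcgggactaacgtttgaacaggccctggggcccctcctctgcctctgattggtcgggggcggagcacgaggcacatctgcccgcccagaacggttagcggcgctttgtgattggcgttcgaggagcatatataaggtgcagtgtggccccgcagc
Nr4a1, chr15:101266596-101266845, plus strand: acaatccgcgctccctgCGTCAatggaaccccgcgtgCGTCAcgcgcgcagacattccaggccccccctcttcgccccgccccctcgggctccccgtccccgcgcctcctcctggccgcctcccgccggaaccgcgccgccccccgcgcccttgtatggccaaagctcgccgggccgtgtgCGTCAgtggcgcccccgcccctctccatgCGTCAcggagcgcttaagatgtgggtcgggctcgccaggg

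Fos held TGACG at −129 and −66, counted from the start of transcription, and a TATAAA box at −33. Junb held it at −106, Nr4a1 at −233, −213, −69 and −40 as CGTCA, and Ier5, which encodes an immediate early response protein, held none. In signal, Ier5 had 10.24 and 10.19 at P14, against 8.48 and 7.74 at P6 (4.29-fold, adjusted p = 0.00729), and the orphan nuclear receptor Nr4a1 had 10.56 and 10.95 at P14, against 8.93 and 8.66 at P6 (3.89-fold, adjusted p = 0.00958). The 6 motifs below were searched on both strands, and TGACG and the window were picked after matches had been seen, so no weight rests on the share. TGACG was in 6 of the 7 promoters and in 17.8% of all 32851 promoters of that length, and the full palindrome TGACGTCA, which contains it, in 1 of 7 and 1.55%. The EGR site (GCGTGGGCG or GCGGGGGCG) was in 1 of 7 and 3.06%, TATAAA in 1 of 7 and 12.4%, CACGTG in 1 of 7 and 6.02%, and the CArG box of serum response factor in 0 of 7 and 1.47%. A match is a description of letters and not of binding.

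Of 30 presynaptic genes measured, which load, dock and recycle synaptic vesicles, 9 rose, 1 fell and 20 did not pass (median 0.68). Dnm1, the dynamin that pinches off synaptic vesicles, had 13.08 and 13.28 at P14, against 11.36 and 10.56 at P6 (4.67-fold, adjusted p = 0.0153). Nsf, the ATPase that takes SNARE complexes apart, had 12.70 and 12.57 at P14, against 11.68 and 10.80 at P6 (1.40 ± 0.26, adjusted p = 0.00507). Syt13 (1.76) and Syt12 (1.54), of the synaptotagmin family, and the SNARE protein Vamp1 (1.23) rose as well. Syp (1.20, adjusted p = 0.0791) and Snap25 (0.95, adjusted p = 0.0733) did not pass. Without single arrays 0, 4, 7 and 5 presynaptic genes rose.

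The vesicular glutamate transporters had opposite signs. Slc17a6, which encodes VGLUT2 and was the member that fell, had 8.98 and 8.79 at P14, against 10.34 and 10.31 at P6 (−1.44 ± 0.40, adjusted p = 0.0485), and passed in 14 of the 30 other settings. Slc17a7, which encodes VGLUT1, had 9.01 and 9.08 at P14, against 7.80 and 7.59 at P6, and did not pass (1.35, adjusted p = 0.114). On the postsynaptic side, 5 of 21 genes of the postsynaptic density rose and none fell (median 0.58). Icam5, the adhesion molecule telencephalin of dendrites, had 11.86 and 11.65 at P14, against 8.50 and 8.98 at P6 (8.10-fold, adjusted p = 1.65e-05). Camk2a, the kinase of synaptic potentiation, had 12.27 and 12.20 at P14, against 10.25 and 9.63 at P6 (4.91-fold, adjusted p = 0.000187). Baiap2 (1.41), Dlgap3 (1.39) and Camk2g (0.98) were the other 3, and Dlg4, which encodes PSD-95, did not pass (0.53). Of 30 synapse organizers 2 rose, Nptx2 and the secreted cerebellin Cbln2 (2.00), with a median of 0.07, which is that of all genes. The share of that list called was 6.67%, near the 5.84% of all genes called in either direction. Without single arrays 2, 3, 3 and 3 genes of the postsynaptic density rose.

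The glutamate receptor subunits mostly did not pass the test. Among 21 AMPA, NMDA and kainate receptor genes and auxiliary proteins, 2 rose (median 0.28): Cacng3, an auxiliary subunit that carries AMPA receptors to the synapse, had 9.29 and 9.13 at P14, against 6.38 and 6.60 at P6 (2.72 ± 0.39, adjusted p = 0.000718), and the secreted Olfm1 rose by 0.88. Gria1 (0.28) and Gria2 (0.08) did not pass. Grin2b, the juvenile NMDA receptor subunit, had 9.22 and 9.27 at P14, against 9.40 and 9.91 at P6 (−0.41, not passing). Grin2a, the subunit of mature synapses, had 5.41 and 5.60 at P14, against 5.43 and 5.63 at P6, below the array medians throughout, so that its probe set gives no information on a switch. Of 6 metabotropic receptors, Grm3 fell (10.07 and 10.10 at P14, against 11.18 and 11.49 at P6, adjusted p = 0.00858).

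GABA receptors and chloride transport had 3 rises among 13 measured genes and no falls (median 0.10). Gabrd, the δ subunit of extrasynaptic receptors, had 9.74 and 9.15 at P14, against 6.05 and 6.09 at P6 (3.38 ± 0.39, adjusted p = 0.000125). Without probe sets that may cross-hybridize, the difference of Gabrd was 0.39 and did not pass (adjusted p = 0.588). Gabra4, its usual partner in the forebrain, rose by 1.30. Slc12a5 encodes KCC2, the transporter that extrudes chloride in mature neurons. It had 12.70 and 12.78 at P14, against 11.69 and 11.90 at P6 (0.95 ± 0.27, adjusted p = 0.05 after rounding), at the edge of the threshold and past it in 13 of the 30 other settings. Slc12a2, which encodes the chloride importer NKCC1 of young neurons, had 8.18 and 8.27 at P14, against 9.19 and 9.31 at P6 (−1.02, adjusted p = 0.110). The arrays of the ages were separate for both transporters, in opposite directions, and the importer did not pass. Such separation, in either direction, held in 51.5% of all genes. Gabra2 did not pass either (9.80 and 9.96 at P14, against 9.49 and 10.09 at P6). Counted without single arrays, 1, 1, 2 and 1 of the 13 genes rose.

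Potassium channels, the longest of the channel lists, held the most called genes of these lists. The share called was 18.9%, below the 23.1% of the GABA list. Of 37 measured, 7 rose and none fell (median 0.50). Kcnc2, the fast Kv3.2 subunit, had 8.77 and 8.68 at P14, against 6.87 and 7.06 at P6 (1.76 ± 0.25, adjusted p = 0.000733). Kcna1, the Kv1.1 subunit of axons, had 9.34 and 9.38 at P14, against 8.09 and 8.11 at P6 (1.26 ± 0.27, adjusted p = 0.0113). The replicates of Kcna1 lay close together at both ages. The accessory subunits Kcnab2 (1.69) and Kcnip4 (1.61), the inward rectifier Kcnj9 (1.54) and the leak channel Kcnk1 (1.33) also rose. Of 11 sodium and HCN channel genes only the β2 subunit Scn2b rose (10.37 and 10.14 at P14, against 8.34 and 8.62 at P6, adjusted p = 0.00266). Scn8a, the Nav1.6 channel of mature axons, had 10.33 and 10.45 at P14, against 9.23 and 9.92 at P6 (0.82, adjusted p = 0.368), and the embryonic channel Scn3a had 8.61 and 8.37 at P14, against 9.85 and 9.99 at P6 (−1.43, adjusted p = 0.0549). Of 20 calcium channel, pump and store genes 2 rose, the auxiliary subunits Cacna2d3 (1.55) and Cacnb4 (1.55). Without single arrays 2, 3, 4 and 3 potassium channel genes rose.

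Second-messenger genes formed the longest list and contributed the most rises, with 23.6% of members called. Among 72 measured kinases, phosphodiesterases, receptors and regulators of G proteins, 16 rose and 1 fell (median 0.37). Rasgrp1, an exchange factor for Ras that responds to diacylglycerol, had 12.25 and 12.36 at P14, against 9.33 and 9.01 at P6 (3.14 ± 0.23, adjusted p = 3.12e-06). With Rasgrf1 and Itpka it made up the 3 largest rises of the list. The somatostatin receptor Sstr3 (1.83) and the G-protein brakes Rgs8 (1.72) and Rgs4 (1.70) followed. The member that fell was Npy1r, a neuropeptide Y receptor, with 7.04 and 7.19 at P14, against 8.50 and 8.63 at P6 (−1.45, adjusted p = 0.0119). The calcineurin subunit Ppp3ca (0.98, adjusted p = 0.0610) and the cannabinoid receptor Cnr1 (−0.93, adjusted p = 0.0894) did not pass. Of 17 calcium-binding proteins 4 rose: Calb1, Pcp4, Cabp1 (2.36) and Hpcal4 (1.79). Hippocalcin, Hpca, averaged higher at P14 without passing (1.26, adjusted p = 0.134). Without single arrays 7, 8, 14 and 10 signalling genes and 2, 2, 5 and 2 calcium-binding genes rose.

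Neuropeptides rose in 8 of 24 measured genes, with none falling (median 0.66). Cck, cholecystokinin, was bright at both ages, with 13.16 and 13.10 at P14, against 11.26 and 11.53 at P6 (3.33-fold, adjusted p = 0.00695). Crh, corticotropin-releasing hormone, had 8.33 and 8.0 at P14, against 3.89 and 5.29 at P6, near the lowest values on the arrays (3.57 ± 0.59, adjusted p = 0.00219). Tac1, the precursor of substance P, had 9.36 and 8.30 at P14, against 6.21 and 6.54 at P6 (2.46 ± 0.40, adjusted p = 0.00213). Vip (2.15, past the threshold in 10 of 29 other settings), the growth-factor-regulated Vgf (1.64) and Tac2 (1.24) rose as well. Npy had a difference of 0.06 and did not pass. Several of these peptides are also made by cortical interneurons, and Vip, Sst and Npy stand on both lists. All 16 interneuron markers had a positive difference, 4 of them above the array medians in all 4 arrays, and 2 passed, Vip and the vesicular GABA transporter Slc32a1 (9.16 and 8.21 at P14, against 5.61 and 6.79 at P6, adjusted p = 0.00781). The log2 summed level of the 16 was 12.548 and 11.999 at P14, against 11.194 and 11.809 at P6. It was 12.674 and 12.647 in the callosal arrays of E18 and 12.637 and 12.601 in those of P3. Sst had 10.45 and 9.50 at P14, against 6.49 and 8.39 at P6 (2.53, adjusted p = 0.0971). The defining enzymes were low at both ages, Gad1 with 6.92 and 6.97 at P14, against 6.52 and 6.71 at P6, and Gad2 with 6.35 and 6.39 at P14, against 5.92 and 6.22 at P6. The part of interneuron RNA in the peptide result was not tested. P14 replicate 1 had the highest interneuron sum of the 4 P14 and P6 arrays. Without single arrays 1, 5, 3 and 6 peptides and 0, 1, 0 and 2 interneuron markers rose.

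Most genes of energy metabolism had a positive difference, among them 16 of the 19 measured in glycolysis. All 49 measured subunits of the respiratory chain and ATP synthase had a positive difference (median 0.61), and 8 passed. Atp5g1, a subunit of the membrane ring of ATP synthase, had 11.95 and 11.40 at P14, against 9.96 and 10.37 at P6 (1.51 ± 0.33, adjusted p = 0.0145). It was 0.96 with the mean of all probe sets and 0.42 without those that may cross-hybridize, not called in either. The complex I subunits Ndufb10 (1.31), Ndufb2 (1.14, but 0.20 and not called without probe sets that may cross-hybridize), Ndufa2 (1.09) and Ndufa6 (1.01) and the ATP synthase subunit Atp5d (1.10) also rose. The log2 summed level of the list was 17.93 and 17.70 at P14, against 17.35 and 17.16 at P6, with no overlap. Without single arrays 0, 4, 2 and 3 of the 49 rose. In glycolysis 6 of 19 genes rose and none fell (median 0.69). Ldhb, the lactate dehydrogenase subunit of oxidative tissues, had 12.63 and 12.47 at P14, against 10.27 and 10.43 at P6 (4.61-fold, adjusted p = 8.82e-06). Eno2, the neuronal enolase, had 11.61 and 11.48 at P14, against 9.93 and 9.16 at P6 (2.00 ± 0.38, adjusted p = 0.00596). Aldoa (1.83), the glucose transporter Slc2a1 (1.78), Tpi1 (1.29) and Pgam1 (1.08) were the other risers, while Pkm (0.69) and Ldha (0.58) did not pass. Without single arrays 2, 3, 6 and 3 glycolytic genes rose, and none of the 12 that kept a value without probe sets that may cross-hybridize. The 33 ribosomal protein genes gave a median of −0.01 with no call.

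The cytoskeleton of the mature axon and dendrite changed in both directions, with 8 rises and 3 falls among 31 genes (median 0.25). Tuba4a, an α-tubulin of mature neurons, had 13.65 and 13.47 at P14, against 11.96 and 11.64 at P6 (3.39-fold, adjusted p = 6.45e-05). The neurofilament subunit Nefl had 12.68 and 12.57 at P14, against 11.19 and 11.38 at P6 (1.34 ± 0.27, adjusted p = 0.00858), and the heavy subunit Nefh rose by 1.67 but passed in 14 of the 30 other settings. Tppp, a protein that bundles microtubules, rose by 2.11. Map2, the dendritic microtubule protein, had 9.95 and 9.64 at P14, against 11.62 and 11.21 at P6 (−1.62 ± 0.32, adjusted p = 0.00695), and Map6, which stabilises microtubules, fell by 1.42 but passed in 14 of the 30 other settings and was −0.06 with the mean of all probe sets. The microtubule-binding genes Mapre3 (1.20) and Map7d2 (1.16) rose. Leaving out single arrays, 1, 1, 5 and 2 rises and 1, 0, 0 and 1 falls were called.

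Of 36 axon growth genes measured, 13 fell (36.1%, against 2.31% of all genes), none rose and 23 did not pass, with a median difference of −0.70. Dpysl3, a collapsin response mediator of growing axons, had 10.48 and 10.76 at P14, against 13.60 and 13.30 at P6 (−2.83 ± 0.46, adjusted p = 0.00192). Chl1, a close homologue of the adhesion molecule L1, had 10.75 and 10.82 at P14, against 12.73 and 12.92 at P6 (−2.04 ± 0.23, adjusted p = 0.000132). Klf7, a transcription factor that supports axon outgrowth, had 9.67 and 9.69 at P14, against 11.44 and 11.49 at P6 (−1.79 ± 0.25, adjusted p = 0.000552). In each of the 3 genes the fall was several times the gap between replicates. Tubb2b, a β-tubulin of young neurons, fell by 1.68 and Map1b, an early microtubule-associated protein of axons, fell by 1.75, with 8.96 and 9.12 at P14, against 10.33 and 11.25 at P6. Stmn2 (−0.65), Mapt (−0.83) and Tuba1a (−0.33) did not pass, though all of them were lower in both P14 arrays, as were 18.8% of all genes. Without single arrays 7, 6, 9 and 8 axon growth genes fell.

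Axon guidance genes had 5 falls and 1 rise among 46 measured (median −0.31). Neo1, the neogenin receptor of netrins and repulsive guidance molecules, averaged 10.86 at P14, against 12.95 at P6, with no overlap (−2.09 ± 0.23, adjusted p = 7.88e-05). Nrp1, the semaphorin receptor that guides callosal axons at the midline, was lower in both P14 arrays (−1.43 ± 0.29, adjusted p = 0.00805). Epha3 (−2.08), Plxna3 (−1.63) and Unc5c (−1.10) also fell, and the secreted Slit3 rose by 0.86. Robo1 (−1.52) and Dcc (−0.45) did not pass, nor did Sema3a (0.15). Of 24 cadherins and protocadherins, Cdh2, Cdh6 and Pcdh8 fell and Cdh22 rose (median −0.30). Cdh2, N-cadherin, had 9.02 and 8.78 at P14, against 11.26 and 10.88 at P6 (−2.16 ± 0.47, adjusted p = 0.0138). Leaving out single arrays, 1, 2, 6 and 1 guidance genes and 0, 0, 1 and 0 cadherins fell.

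Transcription factors of young neurons fell in 6 of 32 measured genes and rose in none (median −0.25). After Sox11, its relative Sox4 had 8.83 and 8.73 at P14, against 10.39 and 10.44 at P6 (−1.64 ± 0.29, adjusted p = 0.00382). Hes6, an inhibitor of Hes1 that promotes neuronal differentiation, had 7.15 and 6.63 at P14, against 8.86 and 8.06 at P6 (−1.57 ± 0.30, adjusted p = 0.00556). Zbtb20 (−1.27), Nfib (−1.27) and Nfix (−0.79) fell, while Neurod6 (−1.10), Tbr1 (0.10) and Nfia (−0.61) did not pass. The group was uneven, with the difference of Sox11 at −4.54 and those of the other 5 between −1.64 and −0.79. Without single arrays 3, 2, 3 and 4 of these factors fell. Cell cycle genes showed 1 rise and 1 fall among 34 (median −0.06), a share of 5.88% that is near the 5.84% of all genes. Ccne1, cyclin E1, had 9.90 and 9.22 at P14, against 8.09 and 7.69 at P6. Rrm2, a subunit of ribonucleotide reductase, had 6.87 and 6.29 at P14, against 9.55 and 8.63 at P6. Of 24 progenitor genes, Fabp7, the fatty acid binding protein of radial glia, had 8.58 and 7.77 at P14, against 9.88 and 11.82 at P6 (−2.67, adjusted p = 0.0408) and the glutamate transporter Slc1a3 fell by 1.51. Both were highest in P6 replicate 2, and without it, or without either P14 array, neither was called. The log2 summed progenitor level was 11.98 and 11.93 at P14, against 12.12 and 12.95 at P6. Fam107a, also called in that list, rose by 1.68, but was 0.74 with the mean of all probe sets and 0.30 without those that may cross-hybridize, not called in either.

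Matrix genes gave 4 falls and 2 rises among 30 (median −0.17). Besides Vcan, Ncan, the brain proteoglycan neurocan, had 10.25 in each P14 array, against 12.01 and 12.07 at P6 (−1.79 ± 0.25, adjusted p = 0.000615). Ptprz1, the phosphatase receptor that binds pleiotrophin and matrix proteins, had 7.60 and 7.30 at P14, against 9.18 and 10.71 at P6 (−2.50 ± 0.41, adjusted p = 0.0024), and the hyaluronan synthase Has3 fell by 1.68. Mmp17 (1.20) and the link protein Hapln1 (1.16, below the array medians) rose. Acan, the aggrecan of perineuronal nets, did not pass (0.12). Cholesterol and lipid genes had 4 falls and 2 rises among 26 (median −0.59). Cyp51, which removes a methyl group from lanosterol, had 7.24 and 7.39 at P14, against 9.38 and 9.59 at P6 (−2.17 ± 0.48, adjusted p = 0.0145), and Sqle (−1.17, past the threshold in 12 of the 30 other settings) and Hsd17b7 (−0.93) also belong to sterol synthesis. Lpl, lipoprotein lipase, fell by 2.34. Cyp46a1, which turns cholesterol into a form that leaves the brain, had 12.40 and 12.20 at P14, against 10.82 and 11.41 at P6 (1.19 ± 0.30, adjusted p = 0.0277), and Ebp rose by 0.90. Hmgcs1 (−0.50) and Idi1 (−1.13) did not pass. Counted without single arrays, 1, 0, 1 and 3 of these lipid genes fell.

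Chromatin regulators had 4 falls and 2 rises among 43 (median −0.01). Dnmt1, the maintenance DNA methyltransferase, had 9.13 and 8.88 at P14, against 10.54 and 10.03 at P6 (−1.28 ± 0.29, adjusted p = 0.0176), while the de novo enzyme Dnmt3a had 10.77 and 10.66 at P14, against 10.46 and 10.32 at P6 (0.32, not passing). Ezh2, the Polycomb methyltransferase, had 5.82 and 5.47 at P14, against 7.41 and 7.70 at P6 (−1.91 ± 0.27, adjusted p = 0.000712). Hmgb3 (−1.40) and Arid1a (−1.35) fell, and Gadd45g (1.77) and Hdac11 (1.09) rose. The chromatin falls without single arrays were 1, 1, 2 and 3. Among 38 RNA-binding and splicing genes Mbnl2 rose by 2.34 and Celf2 fell by 1.32 (median −0.19), so 5.26% were called, near the 5.84% of all genes. Of 18 genes linked to thyroid hormone 4 rose (median 0.30): Crym, Rasd2 (2.00), Flywch2 (1.62) and Klf9 (1.13), the last with 12.10 and 12.21 at P14, against 11.44 and 10.59 at P6. Of 21 growth factor genes 3 rose (median 0.00). Bdnf, the neurotrophin released on activity, had 9.0 and 9.34 at P14, against 7.23 and 7.35 at P6 (1.88 ± 0.43, adjusted p = 0.0178), Igfbp4 rose by 1.82 and Igfbp6 by 1.28, the last past the threshold in 11 of 29 other settings. Among 20 apoptosis genes the nuclease Endog rose by 2.31 and the activator Bbc3 fell by 1.16 (median 0.03). In 15 genes of cortical areas, Tenm3 (−1.99) and Tenm2 (−0.97), the teneurins that match axons to targets, fell (median −0.04).

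Genes that define callosal neurons against corticospinal neurons were mostly lower at P14. Of 31 measured callosal genes 6 fell and 1 rose (median −0.65), and their log2 summed level was 14.87 and 14.77 at P14, against 15.74 and 15.53 at P6. Lpl had 10.15 and 9.89 at P14, against 12.50 and 12.22 at P6 (−2.34 ± 0.44, adjusted p = 0.00564). Limch1, an actin-binding marker of callosal neurons, had 9.28 and 9.14 at P14, against 10.99 and 11.00 at P6 (−1.79 ± 0.34, adjusted p = 0.00633). In both genes the replicates of an age lay close together. Epha3 (−2.08) and Tmtc4 (−1.98) also fell, as did Frmd4b (−2.39), which passed in 19 of the 30 other settings and was −0.69 with the mean of all probe sets and −0.11 without those that may cross-hybridize, while Tnnc1 was the member that rose. Lhx2, which maintains upper-layer identity, had 8.26 and 8.14 at P14, against 9.51 and 9.95 at P6, and did not pass (−1.52 ± 0.59, adjusted p = 0.184). Without single arrays 1, 0, 3 and 5 callosal genes fell. In corticospinal neurons 5 members of this callosal list fell and none rose (median −0.36), and Tnnc1 was the only member whose step differed between the types. Of 21 corticospinal and subcerebral genes 6 rose in callosal neurons and none fell (median 0.31), with a log2 summed level of 14.40 and 14.26 at P14, against 13.39 and 13.47 at P6. Crym, a thyroid-hormone-binding protein used as a corticospinal marker, had 9.40 and 9.03 at P14, against 5.24 and 6.77 at P6 (3.21 ± 0.47, adjusted p = 0.000969). Pcp4, Cdh22 (2.07), Igfbp4 (1.82), Nefh (1.67) and Opn3 (0.91) were the other 5. Bcl11b and Fezf2, the regulators on the same list, did not pass. Igfbp4 had 12.44 and 12.38 at P14, against 10.76 and 10.42 at P6. Leaving out any of the 4 callosal arrays left 4 called. In corticospinal neurons 4 members of this subcerebral list rose and 3 fell (median −0.32), and Pcp4 was the only member whose step differed between the types.

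Markers of other cells were mostly not called. None of 23 oligodendrocyte lineage genes passed (median 0.18), with log2 summed levels of 11.97 and 11.81 at P14, against 11.46 and 11.99 at P6. None of 20 microglia markers passed (median −0.28), with 11.82 and 11.37 at P14, against 11.72 and 12.14 at P6, and none of 23 vascular markers (median 0.13), with 11.97 and 11.77 at P14, against 11.36 and 11.79 at P6. Of 20 astrocyte markers 2 rose and 1 fell (median −0.01), with summed levels of 13.26 and 13.22 at P14, against 12.65 and 13.24 at P6. Aldh1l1 had 9.04 and 8.83 at P14, against 6.57 and 6.91 at P6, and the glutamate transporter Slc1a2 had 11.96 and 12.07 at P14, against 9.49 and 10.69 at P6 (1.92 ± 0.35, adjusted p = 0.00472). Aldh1l1 was 0.02 and not called without probe sets that may cross-hybridize. Slc1a3 was the member that fell. Gfap and Aqp4 did not pass: Gfap had 7.09 and 6.97 at P14, against 6.80 and 6.74 at P6, and Aqp4 had 7.35 and 7.48 at P14, against 7.63 and 7.52 at P6. Gja1 was high in P6 replicate 2 alone, with 9.82 there and 6.76 to 6.99 in the other 3 arrays. Among 17 general neuronal markers Thy1, a surface glycoprotein of mature neurons, rose (12.95 and 12.86 at P14, against 10.93 and 11.45 at P6), as did Camk2a and Eno2. Tubb3, the β-tubulin of young neurons, fell (11.00 and 10.63 at P14, against 12.53 and 12.10 at P6), as did Map2 and Slc17a6, for 5 rises and 4 falls in all (median 0.37).

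The called genes were also followed over the earlier callosal stages. In the 641 risers the median level was 7.66 at E18, 7.87 at P3, 7.93 at P6 and 9.45 at P14, and in the 421 fallers it was 9.58, 9.79, 9.62 and 7.88. The genes were chosen on the last step, so that step is fixed by the choice, and the medians do not show when genes change most. P14 was the highest of the 4 callosal stage means in 609 risers (95.0%) and the lowest in 380 fallers (90.3%). The choice favours these shares as well, and the share over all genes was not counted. Single genes took different courses. Nefl had stage means of 9.05 at E18, 11.18 at P3, 11.28 at P6 and 12.62 at P14, with its widest step before P3. Arc had means of 6.09 at E18, 6.27 at P3, 5.98 at P6 and 9.38 at P14, all below the array medians until P6. Sox11 had means of 13.29 at E18, 13.01 at P3, 12.37 at P6 and 7.83 at P14, and Dcx means of 12.47, 13.11, 12.96 and 9.62 at these stages.

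**Figure D4:**
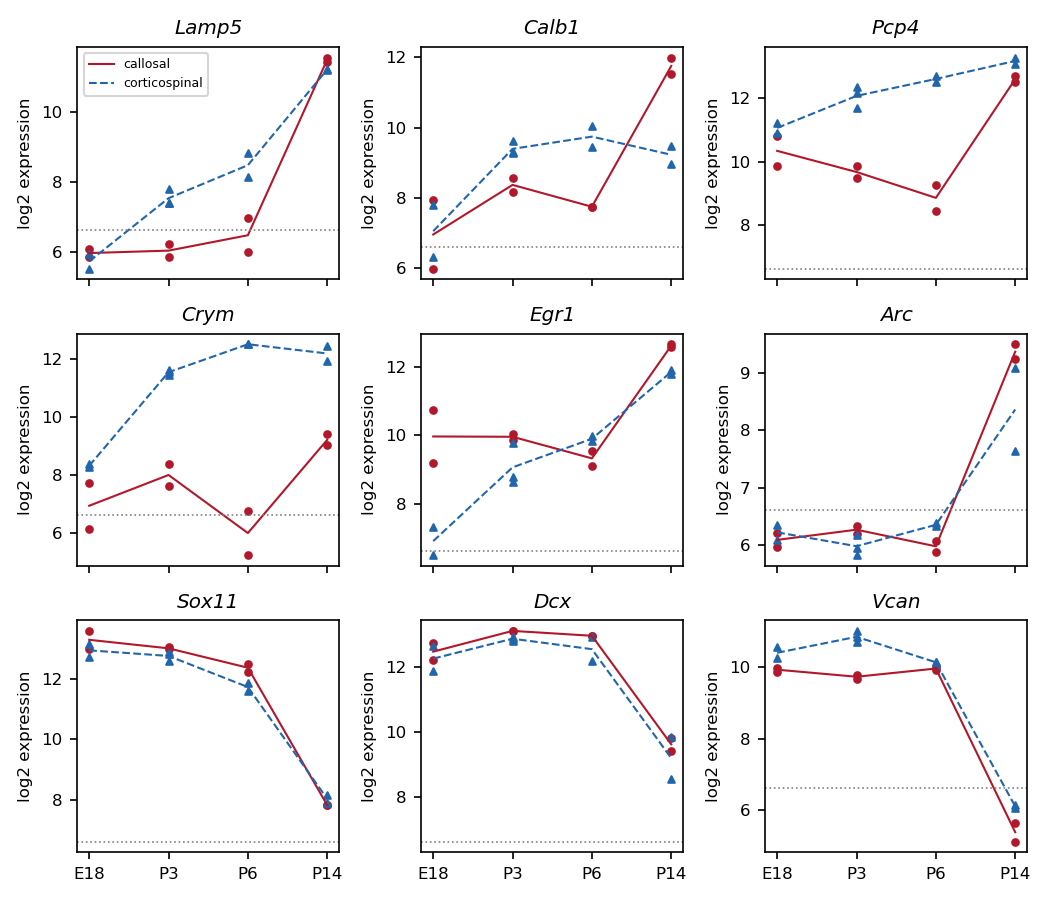
Log2 intensity of 9 genes by stage, from E18 to P14, in callosal neurons (solid red line, circles) and corticospinal neurons (dashed blue line, triangles), with points for arrays and lines through stage means. Lamp5, Egr1 and Arc are higher at P14 than at P6 in both types, and Sox11, Dcx and Vcan are lower in both. Calb1 and Pcp4 step up in callosal neurons without a called change in corticospinal neurons.

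The same interval was compared in corticospinal neurons to ask which changes differ between the types. In corticospinal neurons 1097 genes were called between P14 and P6 (6.03%), 319 higher (1.75%) and 778 lower (4.28%). The 2 comparisons use different arrays for their means but share 1 estimate of spread per gene, so their calls are not independent. That split of 29.1% higher was 38.7% after quantile and 45.9% after cyclic loess normalization, against 60.4%, 60.3% and 55.7% in callosal neurons. The corticospinal count was unstable, with 7831 calls without its P14 replicate 1, 581 without its P14 replicate 2 (381 of them higher), 172 without its P6 replicate 1 and 106 without its P6 replicate 2. The types shared 177 risers, which is 27.6% of the callosal and 55.5% of the corticospinal ones, and 245 fallers, which is 58.2% and 31.5%. Of the callosal risers 584 (91.1%) had a positive difference in corticospinal neurons, and of the fallers 409 (97.1%) a negative one. Across all genes, which are not independent replicates, the differences of the types had a correlation of 0.589. Vcan and Sox11 fell in both types, with corticospinal differences of −4.03 and −3.69, as did Dcx. Lamp5 was called higher in both, and in corticospinal neurons had 11.23 and 11.21 at P14, against 8.82 and 8.14 at P6. Fam107a was the gene called in opposite directions, with a fall of 1.81 in corticospinal neurons, though its callosal call was lost under both other rules for probe sets and the difference between the types did not pass (3.48, adjusted p = 0.0719).

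The difference of the steps passed in 6 genes (0.033% of 18193), all with the callosal change above the corticospinal one, with none the other way and 1176 at an unadjusted p under 0.05 in either direction. Pcp4, which rose in callosal neurons by 3.75, was already at 12.69 and 12.53 in P6 corticospinal neurons and at 13.07 and 13.29 there at P14 (difference of the steps 3.18 ± 0.45, adjusted p = 0.0234). At P14 the callosal values, 12.69 and 12.52, remained below the corticospinal ones. Tnnc1 had 5.70 and 6.55 in P14 and 5.30 and 5.51 in P6 corticospinal neurons, below the array medians throughout (3.13 ± 0.43, adjusted p = 0.0213). Strip2, a striatin-interacting protein, had 7.25 and 7.12 at P14, against 4.26 and 4.09 at P6 in callosal neurons, and stayed between 3.76 and 4.34 in corticospinal neurons (2.90 ± 0.35, adjusted p = 0.0149). These 2 genes thus left the range below the array medians in P14 callosal neurons alone among the 4 groups. Lin7b, a scaffold protein of synaptic junctions, had 12.17 and 12.14 at P14, against 9.45 and 9.44 at P6 in callosal neurons, and 11.30 and 11.37 at P14, against 10.90 and 10.43 at P6 in corticospinal neurons (2.04 ± 0.27, adjusted p = 0.0163). Cd302, a C-type lectin receptor, had 8.68 and 7.91 at P14, against 6.18 and 6.46 at P6 in callosal neurons, and 6.84 and 7.09 at P14, against 7.74 and 7.26 at P6 in corticospinal neurons (2.51 ± 0.39, adjusted p = 0.0404). Hkdc1, a hexokinase relative, had 9.36 and 9.49 at P14, against 7.52 and 7.40 at P6 in callosal neurons, and 8.02 and 7.56 at P14, against 7.40 and 7.59 at P6 in corticospinal neurons (1.67 ± 0.25, adjusted p = 0.0378). In each of the 6, as in every gene called in callosal neurons, the callosal ages were separate.

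Several of the large callosal changes differed in size from the corticospinal ones without the difference passing. For Calb1 the corticospinal values were 8.97 and 9.48 at P14, against 10.04 and 9.44 at P6 (difference of the steps 4.52, adjusted p = 0.0550), and for Crym 12.44 and 11.94 at P14, against 12.51 and 12.50 at P6 (3.53, adjusted p = 0.0830). The same held for Lamp5 (2.29, adjusted p = 0.0830), Rasgrf1 (2.47, adjusted p = 0.0719) and Itpka (2.29, adjusted p = 0.0719). Egr2 rose in callosal neurons and differed by −0.95 in corticospinal neurons (difference of the steps 3.81, adjusted p = 0.0732). The 49 respiratory chain genes had a median of 0.61 in callosal and 0.20 in corticospinal neurons, and no member of that list was among the 6. The count of 6 was 0 without either callosal P14 array, without callosal P6 replicate 1 or without corticospinal P6 replicate 1, and 2 without corticospinal P6 replicate 2. It was 12 without callosal P6 replicate 2, 3 without corticospinal P3 replicate 3, 10 without corticospinal P14 replicate 2 and 3932 without corticospinal P14 replicate 1.

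**Figure D5:**
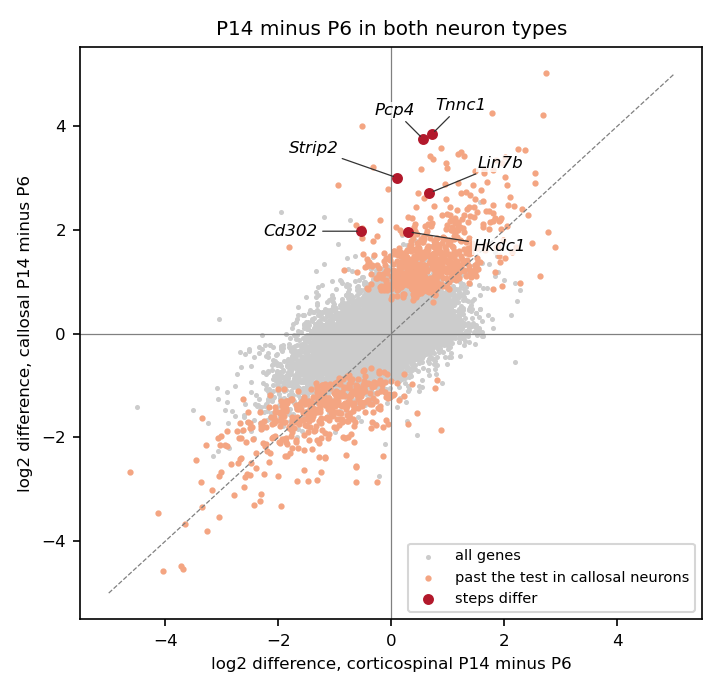
Difference between P14 and P6 (log2) in callosal neurons on the vertical axis against that in corticospinal neurons on the horizontal axis, 1 point per gene for 18193 genes, with genes past the test in callosal neurons in orange, the 6 genes whose steps differ in dark red with their names, and a dashed line where both differences are equal. Most of the called genes have the same sign in both types, and the 6 lie above the dashed line, Tnnc1 at 3.84 and Pcp4 at 3.75.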

How the data were processed

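Each of 19 Affymetrix Mouse Genome 430 2.0 arrays measured 1 sorted sample, in 9 groups. The authors deposited log2 values made by RMA, per the submitters' processing notes, which give no version; RMA normalizes all arrays together and sets no value to 0. The files hold 45101 probe sets: 64 are controls, 34945 have 1 gene symbol in the platform annotation, 932 several and 9160 none. Symbols were matched to RefSeq for 34741 probe sets, and none changed. The brightest probe set over all arrays stood for each of 18193 genes. The alternatives for probe sets were the mean of all those of a gene, and leaving out IDs that end in _s_at, _x_at or _a_at, which may cross-hybridize.

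limma 3.58.1 (R 4.3.3) was fitted with 9 group means, so that all arrays share 1 estimate of the spread (10 residual and 4.46 prior degrees of freedom). The contrasts were P14 minus P6 in callosal neurons, the same in corticospinal neurons and their difference. p-values are two-sided and Benjamini-Hochberg adjusted over all 18193 genes, with a threshold of 0.05. The median SE of a callosal difference was 0.28, and the number of arrays limits its precision. Folds are printed only where all 4 callosal arrays exceed 6.62, and are the higher age over the lower. No set test was run: lists are described by counts and medians. The log2 summed level of a list adds its members on the linear scale in each array. The scripts were tested on simulated data. Alternatives were other normalizations, filters, probe set rules, array weights, models and arrays left out.

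The comparison, the gene lists and the promoter motifs were chosen with earlier results of these data known. Named genes are the 15 largest rises and falls, at most 6 called members of a list with at most 3 familiar ones below the threshold, the genes of the test between the types, identity markers and subunit pairs. Npy1r, Fam107a, Mapre3, Map7d2, Xist and the genes of the promoter section were named outside that rule, after their values were seen. Replicate numbers were not taken to pair the arrays, because the design text describes independent collections. Across genes, the deviations of same-numbered P14 and P6 callosal arrays had a correlation of 0.27. With 2 pairs this value cannot decide whether the arrays are paired. Sequences are from RefSeq, GRCm38.p6. Plots were drawn with matplotlib 3.10.9.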

Additional observations from a re-analysis of the deposited data

Results flagged for a closer look

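A test of the difference between the P14 minus P6 steps of callosal and corticospinal neurons passed in 6 genes, each with a larger step in callosal neurons. The difference of the steps was 3.18 for Pcp4, 3.13 for Tnnc1, 2.90 for Strip2, 2.51 for Cd302, 2.04 for Lin7b and 1.67 for Hkdc1, in log2 units. The test passed in 22 of the 28 other settings that gave a value for Strip2, in 21 of 28 for Tnnc1, in 21 of 29 for Lin7b, in 19 of 29 for Pcp4, in 12 of 28 for Cd302 and in 10 of 29 for Hkdc1. The corticospinal P14 arrays, which enter each of these differences, were the least alike of any group (r = 0.904 across genes, median SD 0.46). All 6 genes were still called without replicate 1 and without replicate 2 of that group, beside 3932 and 10 calls in all.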

How the results depend on the processing

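The callosal count of 1062 calls (641 higher, 421 lower) ranged from 270 to 1781 when single arrays were left out (higher 153 to 983, lower 117 to 798). It was 1781 (983 and 798) in a model without the corticospinal P14 group, 2509 (1382 and 1127) with array weights and 1582 after cyclic loess, where 701 fell. Members of the gene lists called numbered 173 (117 and 56), 314 (183 and 131) with array weights, 92 lower without the corticospinal P14 group, and 53 to 241 (34 to 149 and 16 to 92) when single arrays were left out. The cause of these shifts was not tested.

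The corticospinal count of 1097 was 42 with array weights, 0 in a model of its 2 groups alone (1533 genes at an unadjusted p under 0.05), and 106 to 7831 without single arrays. The 6 genes of the difference between types became 3 among genes above the median brightness, 14 with the mean of all probe sets, 0 with array weights (601 genes at an unadjusted p under 0.05), 0 in a model of the 4 groups alone (794 genes), and 0 to 3932 without single arrays. With the replicate number as a block, limma called 1271 callosal genes (806 higher, 465 lower), 1222 corticospinal genes and 7 differences between types. The cause was not tested.

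Of 5997 values for named genes past the test under other settings, 5225 stayed past it, 772 did not and 0 changed sign. Leaving out arrays outside a contrast, or changing the model of spread, cannot change a difference. Leaving out a single callosal array cannot reverse a callosal gene whose ages do not overlap. The lack of sign changes was therefore largely fixed in advance. Among named genes that did not pass, 4 values changed sign: Gabra2 was −0.17 with the mean of all probe sets and −0.20 to 0.40 without single arrays, and Grin2a was −0.12 to 0.079 without single arrays. Signals below the array medians, such as those of Grin2a, Strip2 at P6 and Hapln1, limit what a difference there can show.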

Other observations

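Probe sets outside the gene table carried few callosal changes. Of 9160 probe sets with no gene symbol 40 were higher and 48 lower at P14 (0.961%), and of 932 with several symbols 17 were higher and 6 lower (2.47%), against 827 higher and 544 lower among 34945 probe sets with 1 symbol (3.92%), each tested by limma over all probe sets.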
